A study of Mus musculus with 24 samples.

Results

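The transcripts of 9 phosphatase genes, Dusp1, Dusp2, Dusp4, Dusp5, Dusp6, Dusp7, Dusp10, Dusp14 and Dusp16, were followed through 24 RNA-seq libraries of mouse immune cells. They were taken by symbol from the 23420 genes of each deposited count table, and all 9 were listed in all 24 tables. The libraries came from Th2 cells, which are CD4 T cells polarised in culture with IL-4, and from bone marrow-derived macrophages (BMDMs) at 0 h or after 6 h of Kdo2-lipid A (KLA), an agonist of the endotoxin receptor TLR4. The study compared wild-type cells with cells lacking either the DNA glycosylase TDG (TDG iKO) or the dioxygenases TET1, TET2 and TET3 (TET iTKO).

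TDG iKO mice were Tdg fl/fl with CreERT2, and TET iTKO mice carried loxP-flanked (fl/fl) alleles of Tet1, Tet2 and Tet3 with CreERT2, a tamoxifen-activated recombinase that is not limited to one cell type. All mice were C57BL/6 and 8 to 16 weeks old. A Rosa26 reporter preceded by a stop cassette marked cells with Cre activity. Th2 cultures began from naive CD4 T cells of spleen and lymph nodes, stimulated through CD3 and CD28 with IL-4 and an antibody to IFN-γ and then expanded in IL-2, and BMDM cultures were grown in L929-conditioned medium and M-CSF. Tamoxifen was given to mice with Cre and to controls alike. The controls were labelled wild type (WT), and their floxed and Cre alleles were not given in the sources used here. The Th2 cells formed 2 groups of 4 libraries (WT and TDG iKO). The BMDMs formed a Tdg cohort (WT and TDG iKO) and a Tet cohort (WT and TET iTKO), each with 2 libraries per genotype at 0 h and 2 at 6 h. Th2 cells of TET iTKO mice were not analysed here.

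The dual-specificity phosphatases remove phosphate from both the threonine and the tyrosine of the activation loop of mitogen-activated protein kinases (MAPKs), the ERK, JNK and p38 enzymes that carry signals from antigen and Toll-like receptors. Dusp1, Dusp2, Dusp4 and Dusp5 encode nuclear enzymes that stimulated cells induce, with ERK as the preferred substrate of Dusp5. Dusp6 and Dusp7 encode cytoplasmic ERK phosphatases. Dusp10 and Dusp16 encode phosphatases that act mainly on JNK and p38. Dusp14 is a small atypical member without the MAPK-binding domain of the others and is known for restraining T-cell receptor signalling.

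Promoters are shown because TET enzymes oxidise the methylated cytosines of CpG dinucleotides, and TDG excises some of the oxidised forms. Dusp2, Dusp16 and Dusp7 were chosen, which passed tests both of KLA and of TET loss. Dusp4 also passed in both, but no promoter was found for it. Some of these calls were lost when a library was left out, as given below. The sequences are those of RefSeq on GRCm38.p6, from 250 bases before to 50 bases after the gene start, on the strand of the gene and written 5′ to 3′. Capitals mark CpG. The Dusp2 promoter lies on the plus strand at chr2:127335909-127336208, that of Dusp16 on the minus strand at chr6:134792579-134792878 and that of Dusp7 on the plus strand at chr9:106368382-106368681.
Dusp2: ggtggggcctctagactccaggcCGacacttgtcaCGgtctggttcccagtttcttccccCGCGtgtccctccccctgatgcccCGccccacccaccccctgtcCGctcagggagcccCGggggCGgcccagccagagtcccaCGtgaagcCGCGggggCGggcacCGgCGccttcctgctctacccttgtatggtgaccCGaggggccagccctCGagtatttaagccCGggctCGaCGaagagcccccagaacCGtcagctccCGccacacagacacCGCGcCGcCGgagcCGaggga
Dusp16: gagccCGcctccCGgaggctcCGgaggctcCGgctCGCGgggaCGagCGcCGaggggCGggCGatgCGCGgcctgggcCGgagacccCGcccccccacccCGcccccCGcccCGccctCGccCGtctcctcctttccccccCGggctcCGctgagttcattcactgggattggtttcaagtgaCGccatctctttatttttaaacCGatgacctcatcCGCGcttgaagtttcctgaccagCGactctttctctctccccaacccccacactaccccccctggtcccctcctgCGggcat
Dusp7: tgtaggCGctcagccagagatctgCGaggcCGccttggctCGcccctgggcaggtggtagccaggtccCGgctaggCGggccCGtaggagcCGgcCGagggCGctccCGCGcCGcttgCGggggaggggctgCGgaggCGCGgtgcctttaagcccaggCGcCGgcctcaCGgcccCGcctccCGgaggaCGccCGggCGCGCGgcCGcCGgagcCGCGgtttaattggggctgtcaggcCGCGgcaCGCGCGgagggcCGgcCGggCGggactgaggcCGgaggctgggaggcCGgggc

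The Dusp7 promoter held 41 CpG, and 3.46% of the 32851 promoters of this length held as many. The Dusp16 promoter held 28 (14.2% of promoters) and the Dusp2 promoter 26 (16.9%). Promoters were found for 8 of the 9 members, all but Dusp4, and they held 19 to 41 CpG each against a median of 7 over all promoters. Of all promoters, 28.1% held 19 CpG or more. These are counts of letters, and methylation was not analysed here. The promoters were also searched on both strands for TGANTCA (AP-1), TGACGT (the core of the cyclic AMP response element), the NF-kB motif and CCGGAAGT (ETS), which 7.81%, 7.51%, 1.47% and 3.89% of all promoters held. None of these motifs was in the windows of Dusp2, Dusp7 or Dusp16. TGACGT matched at bases -191, -143 and -141 from the start in Dusp1, the last 2 overlapping on opposite strands, and at base -56 in Dusp5.

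In the gene models of GENCODE for NCBIM37, the assembly also called mm9 to which the authors aligned, the members lay on 9 chromosomes. Dusp1 is on chromosome 17 (26642535 to 26645464), Dusp2 on chromosome 2 (127161895 to 127164112), Dusp4 on chromosome 8 (35870351 to 35882948) and Dusp5 on chromosome 19 (53603599 to 53616921). Dusp6 is on chromosome 10 (98725865 to 98730122), Dusp7 on chromosome 9 (106270963 to 106278055), Dusp10 on chromosome 1 (185837181 to 185899515), Dusp14 on chromosome 11 (83861543 to 83882763) and Dusp16 on chromosome 6 (134665488 to 134742643). Their exons covered 1945 bases in Dusp14 to 7653 bases in Dusp16 and overlapped no exon of another gene. Dusp10 alone shared its span with another gene, 1700056E22Rik on the opposite strand.

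Counts assigned to genes ranged from 4982950 to 26657729 per library, with a median of 14853861. The shallowest library was WT replicate 2 of the Tdg cohort at 0 h. Replicates 3 and 4 of each Th2 group differed by little more than counting noise (chi-square per gene of 1.51 for WT and 1.34 for TDG iKO, where the other Th2 pairs gave 21.3 to 218.1), so each such pair was counted as 1 sample. Counts per gene could not test the labels, since Tdg was at 0 to 9.22 normalised counts in all libraries and Tet2 and Tet3 transcripts keep the exons that were not deleted. The 8 macrophage markers summed to 313298 to 423203 normalised counts in BMDMs and to 116.3 to 639.7 in Th2 cells. The 8 T-cell markers summed to 33894 to 46955 in Th2 cells and to 120.2 to 390.1 in BMDMs, and the 5 Th2 markers to 4931 to 6593 and 0 to 13.6. B-cell markers (Cd79a, Ms4a1 and Pax5) summed to 160.5 to 169.4 in TET iTKO replicate 2 and to 37.6 to 45.1 in TET iTKO replicate 1. They summed to 14.4 to 15.8 in WT of the Tet cohort and to 3.61 to 39.1 in BMDMs of the Tdg cohort. Granulocyte markers summed to 2161 to 6554 in replicate 1 of the Tdg cohort and to 400.4 to 563.4 in replicate 2.

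**Figure D1:**
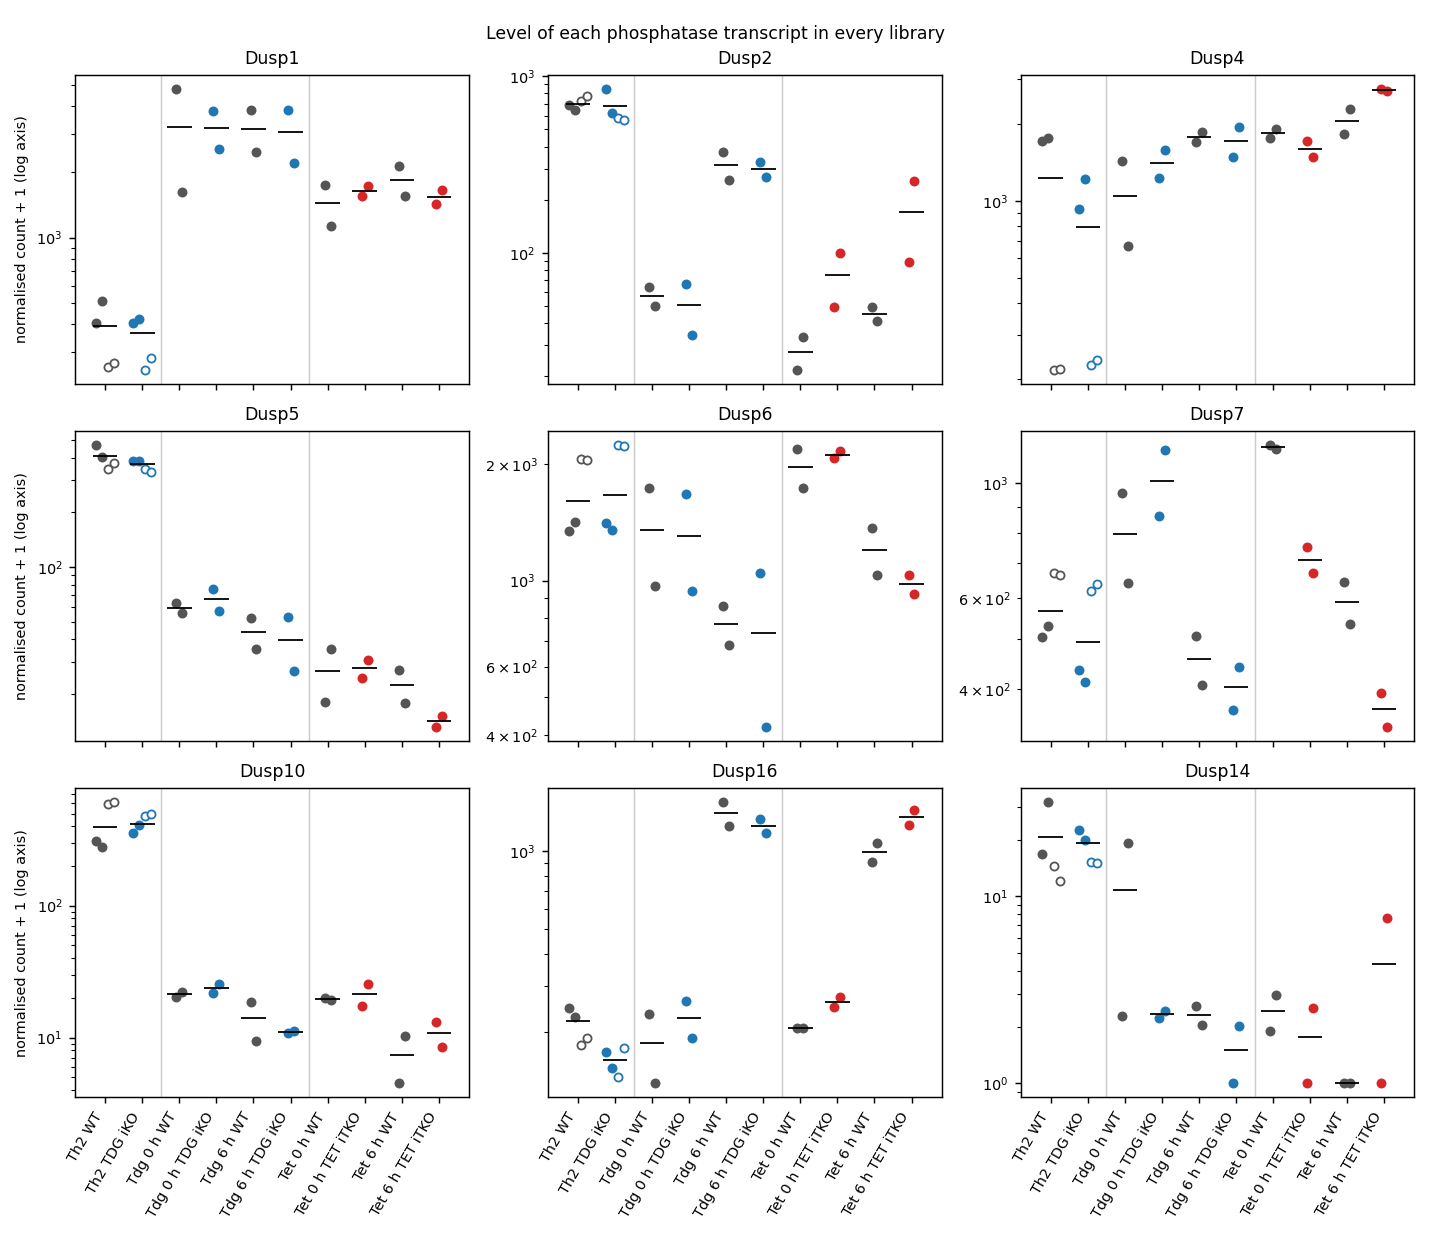
Normalised count plus 1 of each member on a log axis, with 1 point per library in 10 groups (grey WT, blue TDG iKO, red TET iTKO) and a black bar at the group mean; open circles are Th2 replicates 3 and 4, which entered the mean as 1 sample. Dusp2, Dusp5 and Dusp10 were higher in every Th2 library than in every BMDM library, Dusp1 was lower, and Dusp16 was between 905.4 and 1557 in every 6 h BMDM library against 124.9 to 271.9 at 0 h.

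Levels are given as normalised counts, that is, counts divided by size factors that put all 24 libraries on one scale. In bulk RNA, fewer cells of a type and less RNA per cell cannot be told apart. Among the nuclear inducible members, Dusp1 was higher in BMDMs and Dusp2 and Dusp5 in Th2 cells. Dusp1 was at 246.0 to 510.2 in the 8 Th2 libraries (median 342.1) and at 1130 to 4831 in the 16 BMDM libraries (median 1933). Dusp2 was at 568.2 to 851.4 in Th2 cells (median 666.8) and at 20.7 to 372.0 in BMDMs (median 64.1). Dusp5 was at 332.3 to 467.4 in Th2 cells and at 12.2 to 75.2 in BMDMs. For these 3 genes no Th2 library overlapped any BMDM library. The share of all genes that were apart in this way was not computed. Between WT Th2 cells and unstimulated WT BMDMs, 54.8% of all genes passed the test (DESeq2 adjusted p under 0.05). Dusp4 was at 663.9 to 2762 in BMDMs and spread widely in Th2 cells. Its WT Th2 libraries held 1719, 1768, 216.7 and 219.7, and the TDG iKO libraries held 930.7, 1219, 227.4 and 236.7, so in both genotypes replicates 1 and 2 were high and replicates 3 and 4 low.

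The cytoplasmic ERK phosphatases were abundant in both cell types. Dusp6 was at 1346 to 2235 in Th2 cells and at 418.7 to 2183 in BMDMs. Dusp7 was at 412.7 to 668.8 in Th2 cells and at 338.1 to 1181 in BMDMs, and the ranges of both genes overlapped between the cell types. Dusp10 was at 279.7 to 611.9 in Th2 cells and at 3.50 to 24.6 in BMDMs, where it rested on 4 to 34 counts per library. Dusp16 was at 132.3 to 244.9 in Th2 cells, within the 124.9 to 271.9 of unstimulated BMDMs and below the 905.4 to 1557 of KLA-treated BMDMs. Dusp14 was the scarcest member, with 12 to 28 counts in the Th2 libraries and 0 to 9 in BMDMs, where 14 of 16 libraries were at or under a floor of 3 counts. A count of 0 to 3 in a single library does not show that the gene is silent.

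Levels of different genes were compared per kilobase of exon (normalised count divided by the exonic length). In unstimulated WT BMDMs, 4 members stood above the rest. Dusp1 came first at 864.7 ± 625.5 per kb (SD, n = 4), followed by Dusp6 at 592.2 ± 180.4, Dusp4 at 528.6 ± 204.6 and Dusp7 at 293.3 ± 74.9. The ranges of these neighbours overlapped, and Dusp7 was apart from the next, Dusp16, at 25.1 ± 6.12. Dusp2 (20.6 ± 9.21), Dusp5 (17.1 ± 8.34), Dusp10 (6.38 ± 0.44) and Dusp14 (2.88 ± 4.35) came last, each overlapping the one before it. In WT Th2 cells the order was Dusp6 at 574.1 ± 138.9 per kb (SD, n = 3), Dusp4 at 450.8 ± 321.6 and Dusp2 at 346.4 (range 321.4 to 373.3), and the ranges of Dusp6, Dusp4 and Dusp2 overlapped from one to the next. Dusp7 (168.8 ± 26.1), Dusp5 (165.6 ± 22.3), Dusp1 (145.3 ± 46.9) and Dusp10 (130.2 ± 58.3) had lower means and overlapped from one to the next. Their ranges were apart from those of Dusp6 and Dusp2, but all lay within the Dusp4 range of 79.6 to 645.3. Dusp16 at 28.5 ± 4.29 and Dusp14 at 10.1 ± 5.09 were apart from those above and from each other.

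**Figure D2:**
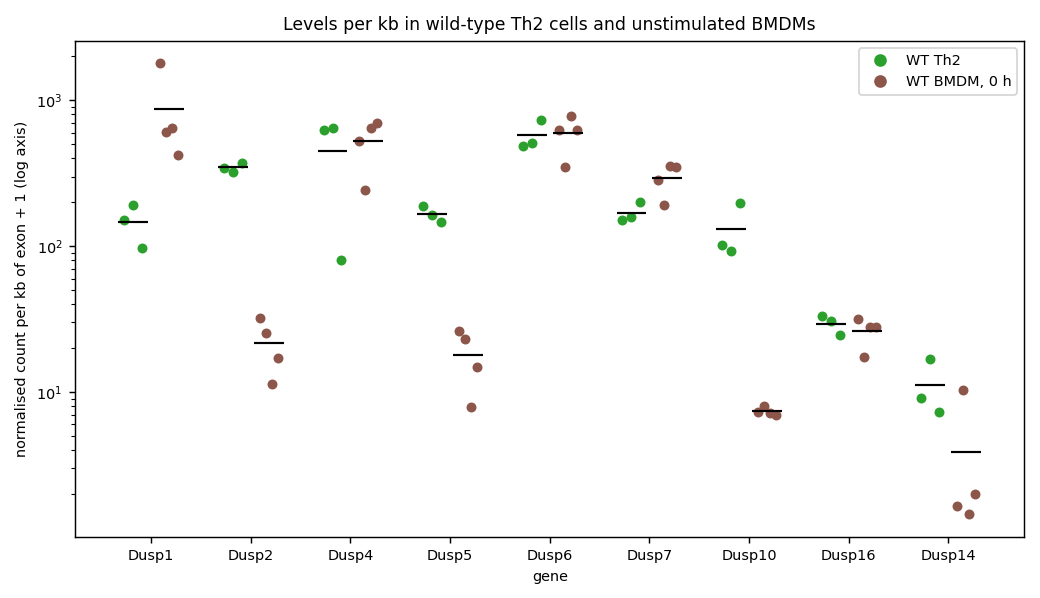
Normalised count per kb of exon plus 1 on a log axis for each member in WT Th2 cells (green, 3 samples) and unstimulated WT BMDMs (brown, 4 libraries), with the mean as a black bar. Dusp2, Dusp5 and Dusp10 lay above every BMDM library in Th2 cells and Dusp1 below, and the Dusp4, Dusp6 and Dusp16 points of the cell types overlapped.

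WT Th2 cells and unstimulated WT BMDMs differed in 5 of the 9 members, with Dusp2, Dusp5 and Dusp10 higher in Th2 cells and Dusp1 and Dusp7 lower. Across all genes 54.8% were called in this comparison, close to the 5 of 9 among the members, so differing by cell type did not set these genes apart. Dusp10 was at 396.0 ± 177.4 in Th2 cells (SD, n = 3) and 19.4 ± 1.35 in BMDMs (SD, n = 4), a log2 fold change of 4.39 (SE 0.41, adjusted p = 1.38e-25). Dusp2 was at 693.8 ± 52.1 against 41.2 ± 18.4, a log2 fold change of 4.12 (SE 0.39, adjusted p = 1.87e-25). Dusp5 was at 409.4 ± 55.2 against 42.3 ± 20.6, or 3.32 on the log2 scale (SE 0.43, adjusted p = 1.47e-13). Dusp1 was at 391.9 ± 126.4 in Th2 cells against 2332 ± 1687 in BMDMs, a log2 fold change of -2.58 (SE 0.51, adjusted p = 1.60e-06). Dusp7 differed by -0.79 (SE 0.29, adjusted p = 0.012) with overlapping groups, and lost its call without Th2 replicate 1 or 2, without either Tet cohort library (adjusted p 0.0638 to 0.092), and when only library numbers 1 to 12 were fitted (adjusted p = 0.176).

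Dusp4, Dusp6 and Dusp16 did not pass the test between the cell types. The 95% intervals of their log2 differences were -1.44 to 0.98 for Dusp4, -0.68 to 0.61 for Dusp6 and -0.41 to 0.74 for Dusp16. Dusp14 differed by 2.11 (SE 1.06, adjusted p = 0.0801), and passed without WT replicate 2 of the Tdg cohort, the shallowest library, where 6 reads made 18.3 normalised counts (log2 difference 3.70, adjusted p = 0.000311). Cell type, culture, tissue of origin and animals cannot be told apart in this comparison.

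KLA raised Dusp16 and lowered Dusp7 in most of the 4 BMDM settings, and its effect on Dusp2 was large in the Tdg cohort. Across all genes the test called 8.6% in WT of the Tdg cohort, 7.08% in TDG iKO, 24.1% in WT of the Tet cohort and 24.4% in TET iTKO. Among the 8 members tested, 2, 3, 3 and 5 passed in these settings in turn. The median log2 response of these 8 members was -0.25, -0.41, -0.05 and -0.52, against -0.03, 0.00051, -0.01 and -0.01 over all genes tested. Within each cohort, all groups shared 1 estimate of the spread.

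Dusp16, a JNK and p38 phosphatase, rose in all 4 settings. In the Tdg cohort its WT libraries held 233.3 and 124.9 at 0 h and 1557 and 1256 at 6 h, a log2 fold change of 2.95 (SE 0.38, adjusted p = 1.30e-12). The TDG iKO libraries held 262.5 and 187.2 at 0 h and 1340 and 1174 at 6 h (2.50, SE 0.37, adjusted p = 1.54e-09). No unstimulated library came near a stimulated one. In the Tet cohort WT went from 205.6 and 205.5 to 905.4 and 1076 (2.28, SE 0.16, adjusted p = 9.07e-45), and TET iTKO from 248.0 and 271.9 to 1262 and 1450 (2.38, SE 0.16, adjusted p = 4.06e-50). Dusp16 kept its call in every alternative fit of all 4 settings. The fitted folds were 7.71 in WT and 5.64 in TDG iKO of the Tdg cohort, and 4.85 in WT and 5.22 in TET iTKO of the Tet cohort.

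Dusp2, a nuclear phosphatase of activated leukocytes, rose strongly in the Tdg cohort. Its WT libraries held 62.8 and 48.7 at 0 h and 372.0 and 258.9 at 6 h, a log2 fold change of 2.48 (SE 0.47, adjusted p = 9.46e-06). The TDG iKO libraries held 65.3 and 33.2 at 0 h and 325.8 and 268.5 at 6 h (2.62, SE 0.46, adjusted p = 6.89e-07). All stimulated libraries of this cohort lay above all unstimulated ones. In WT of the Tet cohort the values were 20.7 and 32.5 at 0 h and 48.1 and 40.0 at 6 h, a log2 difference of 0.73 (SE 0.50, adjusted p = 0.334, 95% interval -0.25 to 1.70). In TET iTKO they were 48.2 and 99.1 at 0 h and 87.5 and 253.4 at 6 h, and the call there (1.21, SE 0.46, adjusted p = 0.0384) was lost in 6 of 8 fits that left out a library and with edgeR (adjusted p = 0.0857). The difference in Dusp2 response between the WT groups of the cohorts was 1.75 (SE 0.77, 95% interval 0.25 to 3.25), in a DESeq2 contrast added after these values were seen. Its adjusted p was 1. That contrast called 0.0127% of all genes and none of the members by DESeq2 or edgeR, with 1 member under an unadjusted p of 0.05 in each.

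Dusp7, a cytoplasmic ERK phosphatase, was lower at 6 h in every setting without overlap. In the Tet cohort WT fell from 1181 and 1161 to 642.3 and 533.2 (log2 fold change -0.99, SE 0.15, adjusted p = 1.51e-09) and TET iTKO from 751.3 and 669.1 to 392.3 and 338.1 (-0.96, SE 0.16, adjusted p = 1.46e-08). In TDG iKO it went from 862.7 and 1155 to 364.8 and 441.4 (-1.31, SE 0.34, adjusted p = 0.00306), a call lost without 6 h replicate 1 (adjusted p = 0.0995) or 0 h replicate 2 (adjusted p = 0.209) and with edgeR (adjusted p = 0.0629). In WT of the Tdg cohort, 956.2 and 639.6 at 0 h and 506.6 and 406.7 at 6 h gave -0.81 (SE 0.34, adjusted p = 0.138).

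Dusp6, the other cytoplasmic ERK phosphatase, fell in the Tet cohort. WT held 2183 and 1737 at 0 h and 1365 and 1031 at 6 h (-0.70, SE 0.15, adjusted p = 4.78e-05). TET iTKO held 2067 and 2158 at 0 h and 1036 and 919.9 at 6 h (-1.11, SE 0.15, adjusted p = 1.21e-11). Both calls held without each library in turn. In the Tdg cohort the estimates were -0.81 in WT (adjusted p = 0.371) and -0.83 in TDG iKO (adjusted p = 0.521), with standard errors of 0.50, and replicate 1 was above replicate 2 in all 4 groups. Its TDG iKO libraries held 1671 and 939.4 at 0 h and 1047 and 418.7 at 6 h, so the groups overlapped. Without 6 h replicate 1 the TDG iKO estimate was -1.62 (adjusted p = 0.0319).

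Dusp4 passed the test in TET iTKO alone, where it went from 1719 and 1486 to 2762 and 2714 (0.77, SE 0.13, adjusted p = 1.27e-07). In WT of the Tet cohort, 1769 and 1922 became 1834 and 2301 (0.17, SE 0.13, adjusted p = 0.423), and the groups overlapped. In the Tdg cohort the estimates were 0.77 in WT (SE 0.40, adjusted p = 0.267) and 0.30 in TDG iKO (SE 0.40, adjusted p = 0.961). The WT value depended on 1 library: without 0 h WT replicate 1 it was 1.41 (adjusted p = 0.00144). Those 0 h WT libraries held 1438 and 663.9.

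Dusp1, an immediate early gene, did not pass the test at 6 h in any setting. In the Tdg cohort its WT libraries ranged over 1623 and 4831 at 0 h and 2462 and 3838 at 6 h, with a 95% interval of the log2 difference from -1.04 to 0.98. In WT of the Tet cohort, 1744 and 1130 at 0 h and 2122 and 1560 at 6 h gave 0.37 (SE 0.18, adjusted p = 0.143). With each animal as a block, which the deposited file names allow in this cohort, the rise in WT was 0.38 (adjusted p = 0.00189), and it was 0.71 without 0 h WT replicate 1 (adjusted p = 0.00305) and 0.57 without 6 h WT replicate 2 (adjusted p = 0.0368). That block called 25.8% of all genes in WT and 25.9% in TET iTKO. In TET iTKO the Dusp1 estimate was -0.09 (95% interval -0.45 to 0.27).

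Dusp5 and Dusp10 were low in BMDMs, and neither passed in any setting. Dusp5 estimates ranged from -1.02 in TET iTKO to -0.26 in WT of the Tet cohort, with standard errors of 0.59 to 0.64. Dusp10 estimates ranged from -1.53 (SE 0.81) in WT of the Tet cohort to -0.66 (SE 0.90) in WT of the Tdg cohort. All 8 unstimulated libraries held 16.4 to 24.6 normalised counts of Dusp10 and the 8 stimulated ones 3.50 to 17.6. Dusp14 was too low to be given an adjusted p in any KLA test.

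**Figure D3:**
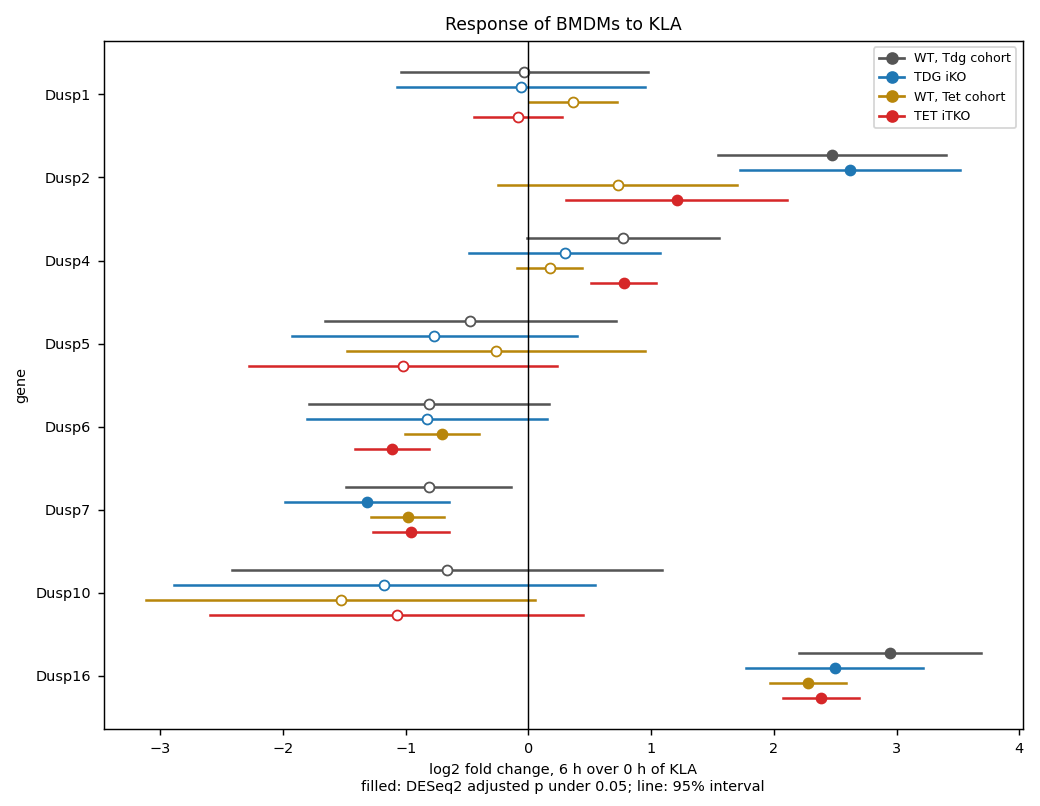
Log2 fold change at 6 h over 0 h of KLA (points) with 95% intervals (lines) for 8 members in WT of the Tdg cohort (grey), TDG iKO (blue), WT of the Tet cohort (ochre) and TET iTKO (red); filled points passed the test. Dusp16 was filled in all 4 settings at 2.28 to 2.95, and Dusp6 and Dusp7 lay to the left of 0 in every setting. Dusp14 is left out because its counts were at the floor.

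TET loss changed 2 members in unstimulated BMDMs, where 7.5% of all genes were called, and 4 members at 6 h of KLA, where 6.58% were called, out of 8 members tested each time. Dusp2 was higher and Dusp7 lower in TET iTKO at both times, and Dusp4 and Dusp16 were higher at 6 h. Each comparison had 2 libraries per genotype. Marker sums moved with genotype in both replicates. Granulocyte markers summed to 966.5 to 2120 in TET iTKO against 413.1 to 768.5 in WT, dendritic cell markers to 22.6 to 65.4 against 2.79 to 5.39, and macrophage markers to 313298 to 335666 against 367207 to 409282. B-cell markers summed to 37.6 to 169.4 against 14.4 to 15.8. These ranges did not overlap, and their part in the differences of Dusp2, Dusp4, Dusp7 and Dusp16 was not tested. The same dendritic cell list summed to 29.6 to 338.8 in BMDMs of the Tdg cohort and to 1253 to 2562 in Th2 cells. Dusp7 was the steadier result. At 0 h it was at 751.3 and 669.1 in TET iTKO and 1181 and 1161 in WT, which gave -0.72 on the log2 scale (SE 0.15, adjusted p = 9.32e-05). At 6 h it was at 392.3 and 338.1 against 642.3 and 533.2 (-0.69, SE 0.16, adjusted p = 0.000523). The groups did not overlap at either time, and edgeR called both (adjusted p 0.00678 and 0.0139). Without TET iTKO replicate 2 the adjusted p was 0.0576 at 0 h and 0.0873 at 6 h, and it was 0.0807 at 6 h without WT replicate 1, while the estimates stayed between -0.82 and -0.56.

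Dusp2 was at 48.2 and 99.1 in TET iTKO at 0 h against 20.7 and 32.5 in WT, which gave 1.46 on the log2 scale (SE 0.49, adjusted p = 0.0383). At 6 h it was at 87.5 and 253.4 against 48.1 and 40.0 (1.95, SE 0.47, adjusted p = 0.0014). Both TET iTKO replicates were above both WT replicates at each time, and replicate 2 was the higher of them. TET iTKO replicate 2 also had the highest B-cell, granulocyte and dendritic cell marker sums of the Tet cohort. Granulocyte markers summed to 1810 to 2120 in replicate 2 against 966.5 to 1125 in replicate 1 of TET iTKO. Dendritic cell markers summed to 60.7 to 65.4 against 22.6 to 23.6. In TET iTKO replicate 2 Ms4a1 was at 79.1 to 102.5, Cd79a at 54.2 to 73.0 and Pax5 at 8.45 to 12.6. In the other Tet cohort libraries they were at most at 13.2, 30.7 and 5.12. The part of B cells, granulocytes or dendritic cells in the Dusp2 level was not tested. Without TET iTKO replicate 2 the Dusp2 estimate was 0.85 at 0 h (adjusted p = 0.872) and 0.99 at 6 h (adjusted p = 0.585). At 0 h the call was also lost without WT replicate 1 (adjusted p = 0.463) or 2 (adjusted p = 0.0971), and edgeR gave adjusted p-values of 0.14 at 0 h and 0.0521 at 6 h.

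**Figure D4:**
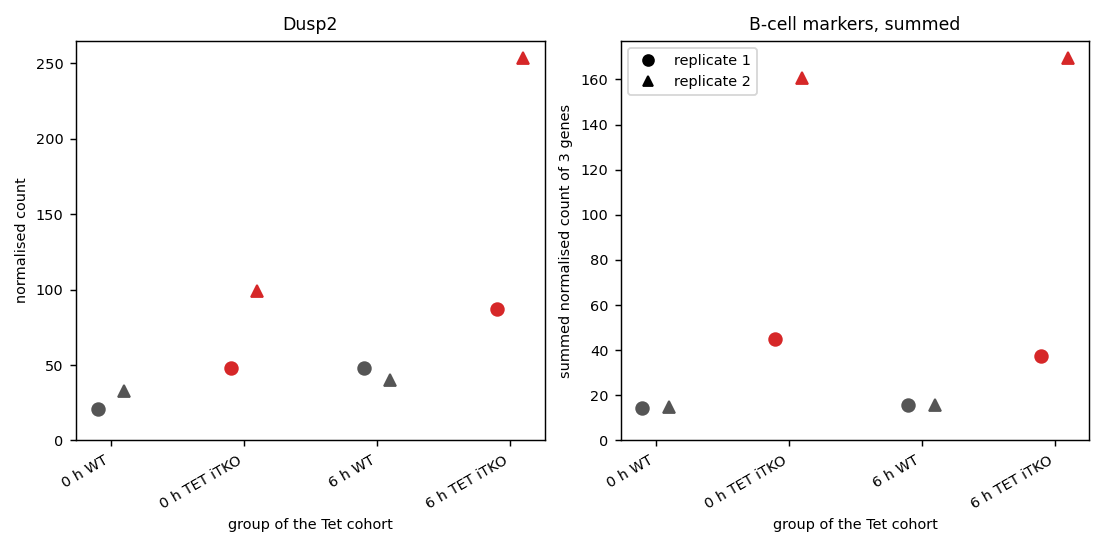
Normalised count of Dusp2 (left) and the summed normalised count of 3 B-cell markers (right) in the 8 libraries of the Tet cohort, grey for WT and red for TET iTKO, circles for replicate 1 and triangles for replicate 2. TET iTKO replicate 2 was highest in both panels, at 99.1 and 253.4 for Dusp2, and TET iTKO replicate 1 lay above both WT libraries of its time point in both panels. Granulocyte and dendritic cell marker sums, not drawn here, were also highest in TET iTKO replicate 2.

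Dusp16 was at 1262 and 1450 in TET iTKO at 6 h against 905.4 and 1076 in WT, which gave 0.45 on the log2 scale (SE 0.15, adjusted p = 0.04). At 0 h it was at 248.0 and 271.9 against 205.6 and 205.5 (0.34, SE 0.17, adjusted p = 0.26). Dusp4 was at 2762 and 2714 against 1834 and 2301 at 6 h (0.40, SE 0.13, adjusted p = 0.0465), and at 1719 and 1486 against 1769 and 1922 at 0 h (-0.20, SE 0.14, adjusted p = 0.512). The 6 h groups did not overlap for either gene. Both 6 h calls were lost in 7 of 8 fits that left out a library, with edgeR (adjusted p 0.0522 for Dusp16 and 0.107 for Dusp4) and when only the 4 libraries compared were fitted.

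The remaining members did not pass between TET iTKO and WT. Dusp1 differed by 0.19 at 0 h (95% interval -0.17 to 0.55) and by -0.26 at 6 h (-0.62 to 0.10). Dusp6 differed by 0.11 at 0 h (-0.19 to 0.41) and by -0.30 at 6 h (-0.60 to 0.005). The intervals of Dusp5 and Dusp10, at these low counts, spanned -1.98 to 1.25 and -1.31 to 2.25 over the 2 times. The median log2 difference of the 8 members tested was 0.13 at 0 h and 0.07 at 6 h, against 0.01 and -0.00206 over all genes.

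In the unblocked test of the difference in KLA response between TET iTKO and WT, no member passed, and 0.426% of all genes were called. That fit does not use the link between the 0 h and 6 h libraries of an animal. A missing call does not show that the responses were the same. DESeq2 called 0 of 8 members, with 1 under an unadjusted p of 0.05, and edgeR gave the same counts. That member was Dusp4, with a difference of 0.60 (SE 0.19, unadjusted p = 0.00158, adjusted p = 0.203). With the animal as a block, 2.48% of all genes were called, Dusp4 among them (0.61, adjusted p = 0.00288). It also passed without 6 h WT replicate 2 (0.78, adjusted p = 0.012), and over all alternatives its adjusted p ranged up to 0.999. The unblocked intervals were -0.85 to 1.81 for Dusp2, -0.40 to 0.45 for Dusp7 and -0.33 to 0.54 for Dusp16.

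With all libraries fitted, none of the 9 members passed the test for TDG loss in Th2 cells or BMDMs. This does not show that their levels were unchanged. In Th2 cells DESeq2 called 0% of 15826 genes and edgeR 0 of 11071, with 77 and 55 genes under an unadjusted p of 0.05. Dusp16 was the member under that level in both tools. Its WT Th2 libraries held 244.9, 227.7, 175.7 and 187.2, and its TDG iKO libraries held 166.1, 143.9, 132.3 and 171.1, a log2 difference of -0.50 (SE 0.22, unadjusted p = 0.0251, adjusted p = 1). All TDG iKO libraries lay below all WT libraries. Dusp4 differed by -0.64 (SE 0.76) with the spread between replicates described above. Whether the Th2 replicate numbers pair the genotypes is not known, and with the replicate block 0.147% of genes were called. No member was among them, with Dusp4 at -0.45 (SE 0.16, adjusted p = 0.549) and Dusp16 at -0.49 (SE 0.21, adjusted p = 0.814). In Th2 replicates 1 and 2 alone, a choice made after the split was seen, Dusp4 was at 930.7 and 1219 in TDG iKO against 1719 and 1768 in WT and passed (-0.72, SE 0.15, adjusted p = 0.000851), whereas replicates 3 and 4 held 227.4 and 236.7 against 216.7 and 219.7. The 95% intervals in Th2 cells were -0.47 to 0.40 for Dusp2, -0.54 to 0.21 for Dusp5 and -0.64 to 0.77 for Dusp10.

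In BMDMs the TDG comparison called 0% of 15026 genes at 0 h and 0% at 6 h, and 0% for the difference in KLA response. No member was under an unadjusted p of 0.05 in these 3 tests with either DESeq2 or edgeR, which also called 0 genes. Across all genes 265, 34 and 37 were under that level by DESeq2 and 125, 27 and 24 by edgeR. At 0 h Dusp7 differed by 0.33 (95% interval -0.34 to 1.00) and Dusp4 by 0.41 (SE 0.40). At 6 h Dusp7 differed by -0.17 (-0.85 to 0.50) and Dusp4 by -0.06 (-0.84 to 0.72). Without 0 h WT replicate 1, leaving the shallowest library as the lone WT sample at 0 h, 1177 genes were called at 0 h, and Dusp4 was 1 of them (1.06, adjusted p = 0.0365). A Dusp7 difference of the size seen in TET iTKO lay inside the TDG interval at 6 h and outside it at 0 h.

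**Figure D5:**
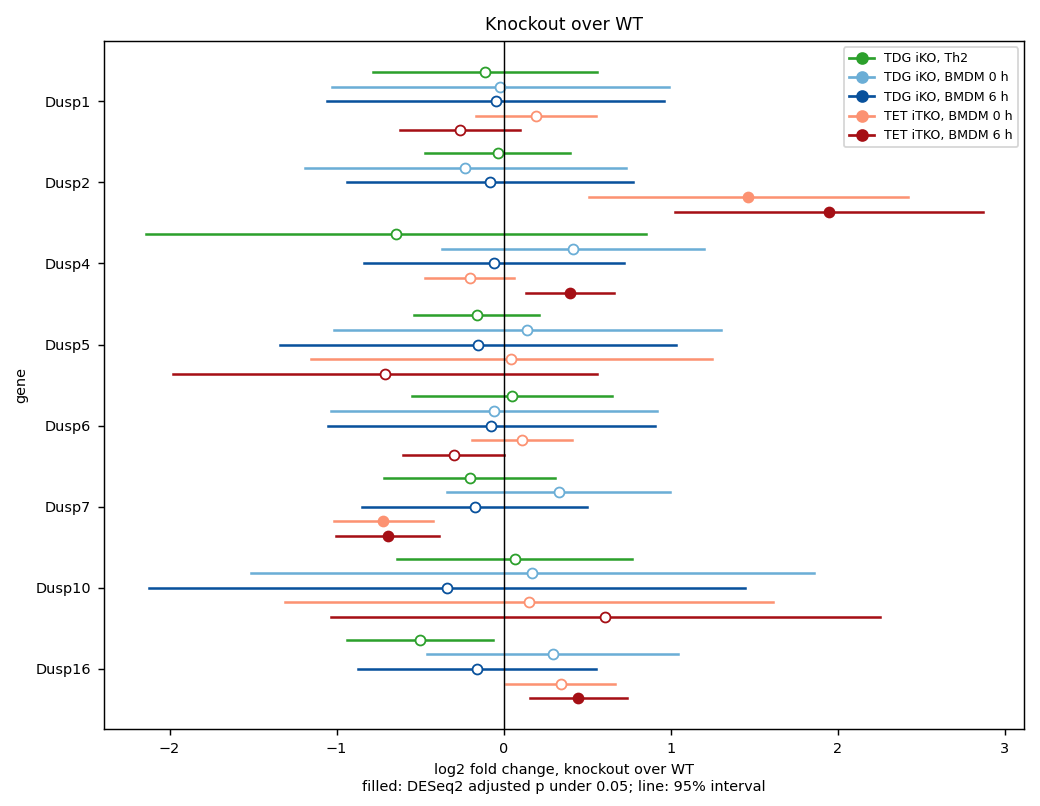
Log2 fold change of knockout over WT (points) with 95% intervals (lines) for 8 members in 5 comparisons, green and blue for TDG iKO and light and dark red for TET iTKO; filled points passed the test. Filled points were Dusp2 and Dusp7 at both times and Dusp4 and Dusp16 at 6 h, all in TET iTKO, and every TDG iKO point was open.

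The TET and TDG effects were also compared directly, each knockout against its own WT. The test of that difference called 0.355% of all genes at 0 h and 0.0765% at 6 h. DESeq2 and edgeR called 0 members at either time, with 2 members at 0 h and 1 at 6 h under an unadjusted p of 0.05 in each tool. Dusp7 differed by -1.04 at 0 h (SE 0.34, unadjusted p = 0.00192, adjusted p = 0.23) and by -0.51 at 6 h (SE 0.34, adjusted p = 1). Dusp2 differed by 1.69 at 0 h (SE 0.77, unadjusted p = 0.0286, adjusted p = 0.761) and by 2.04 at 6 h (SE 0.73, unadjusted p = 0.00499, adjusted p = 0.68). The calls in TET iTKO and their absence in TDG iKO therefore did not amount to a tested difference between the knockouts.

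A list of 72 other genes of MAPK signalling was followed beside the members. KLA changed 9 of 63 tested in WT of the Tdg cohort (4 higher, 5 lower), 8 of 63 in TDG iKO (4 and 4), 22 of 63 in WT of the Tet cohort (11 and 11) and 21 of 62 in TET iTKO (10 and 11). These are 14.3%, 12.7%, 34.9% and 33.9% of the list, beside 8.6%, 7.08%, 24.1% and 24.4% of all genes. Their median log2 changes were 0.23, 0.08, 0.08 and 0.03. Mapkapk2, the kinase that p38 activates, rose by 2.16, 1.98, 1.76 and 1.64 in these settings in turn, with adjusted p-values of 2.24e-09, 6.46e-08, 2.26e-40 and 9.39e-35. Map2k1, which phosphorylates ERK, rose by 0.93, 0.80, 0.72 and 0.47 and passed in all 4. Among early response transcripts, Ier3 rose by 1.96 in both genotypes of the Tdg cohort and by 1.06 in TET iTKO, and passed in all 4 settings, as did Jun in the other direction, which changed by -1.39 in TDG iKO (adjusted p = 0.000392) and by -1.02 in TET iTKO (adjusted p = 1.54e-13). Myc passed in WT of the Tet cohort alone, with a change of -1.42 (adjusted p = 9.28e-05). Spry2, a feedback inhibitor of the Ras-ERK pathway, changed by -1.41, -1.17, -1.21 and -1.32 and passed in each. Spred1, another inhibitor of that pathway, rose by 0.84 in WT of the Tet cohort (adjusted p = 1.63e-11) and by 0.66 in TET iTKO (adjusted p = 2.32e-07).

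Of 16 other DUSP genes, 11 or 12 were tested and every one called was lower at 6 h: 3 in WT of the Tdg cohort, 1 in TDG iKO, and 3 each in WT and TET iTKO of the Tet cohort. Dusp3, a small atypical phosphatase, was among them each time, with log2 changes of -1.24, -1.29, -1.12 and -0.88. Dusp9, another cytoplasmic ERK phosphatase, was at 13.8 to 70.0 normalised counts at 0 h and 2.97 to 11.2 at 6 h. It changed by -2.80 in WT of the Tdg cohort (adjusted p = 0.0202), -2.44 in WT of the Tet cohort (adjusted p = 0.00313) and -2.12 in TET iTKO (adjusted p = 0.0407), and by -2.17 in TDG iKO (adjusted p = 0.111). Dusp8, a JNK and p38 phosphatase, had 1 to 12 counts in BMDMs and passed in none of these.

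TET loss changed 3 of 63 listed genes at 0 h (4.76%, beside 7.5% of all genes) and 3 of 62 at 6 h (4.84%, beside 6.58%), shares below those of all genes. At 0 h Spry2 was lower by -0.64 (adjusted p = 0.0086), Dusp3 was lower by -0.41 (adjusted p = 0.0297) and Rps6ka1, a kinase downstream of ERK, was higher by 0.49 (adjusted p = 0.0458). At 6 h Spry2 was lower by -0.75 (adjusted p = 0.00364), Mapkapk3 was higher by 0.62 (adjusted p = 0.0011) and the early response transcript Myc was higher by 1.22 (adjusted p = 0.00501). In the 3 TDG comparisons DESeq2 called none of the 67 tested, with 0 under an unadjusted p of 0.05, and edgeR called no gene at all. Between WT Th2 cells and WT BMDMs 39 of 67 passed, 21 higher and 18 lower in Th2 cells, a share of 58.2% close to the 54.8% of all genes. Dusp3 was lower in Th2 cells by -4.75 (SE 0.20, adjusted p = 3.50e-117) and Spry2 by -5.69 (SE 0.56), whereas the p38 gene Mapk11 was higher by 4.08 (SE 0.37) and the kinase gene Map3k8 by 2.21 (SE 0.29).

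Across the 16 BMDM libraries, with the mean of each cohort removed, the members that KLA moved ran together or against each other. Pearson's r on log2 of the normalised count plus 1 was 0.82 between Dusp2 and Dusp16, -0.86 between Dusp2 and Dusp7, -0.85 between Dusp7 and Dusp16 and 0.69 between Dusp6 and Dusp7. These libraries share the KLA time point, so the values describe that split as much as the genes. Over 9530 genes, the likest to Dusp16 was Rfwd2 (r = 0.99), followed by Nlrp3 and Adam17, and the likest to Dusp7 was Man1c1 (r = 0.98), followed by Steap3 and Tbc1d22a. The likest to Dusp6 was Mbnl1 (r = 0.97), to Dusp4 Zfp275 (r = 0.96), to Dusp2 Sema4c (r = 0.94) and to Dusp1 Mthfd1l (r = 0.91).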

How the data were processed

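Polyadenylated RNA of 24 libraries was sequenced as directional paired-end reads. The authors aligned the reads to mm9 with HISAT2 and summarised them per gene with HTSeq, and the deposited values are raw counts, without normalization. The strand setting, annotation and versions of HISAT2 and HTSeq are not given in the sources used here. The authors' own tests used DESeq2 1.30.0.

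Groups and replicate numbers came from the labels. As in the study's methods, comparisons were made with DESeq2 (version 1.42.0, R 4.3.3, Wald test), with Benjamini-Hochberg adjustment over all genes and a threshold of 0.05. Each BMDM cohort of 8 libraries was fitted together, Th2 libraries alone (replicates 3 and 4 summed, 3 against 3), and the TET minus TDG and WT cohort differences in all 16 BMDM libraries. Fold changes are log2 and unshrunken, with Wald 95% intervals. The 5 tallies that name no gene were left out. No label says that replicates were separate cultures or animals, so p-values measure the spread between these libraries, which outside the Tet cohort may be technical.

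The members and lists were chosen with earlier results of these data known. Other genes were named by rule: Dusp8, Dusp9 and, per role and comparison, up to 2 called genes with the largest change and a mean of at least 50 counts, and the likest genes of members with that mean.

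Deviations of same-numbered Th2 samples correlated between the genotypes at 0.478 to 0.898, but no label says that the numbers pair them. In the Tet cohort deposited file names give 1 animal per replicate at both times, so values with a block nested in genotype are given there beside the unblocked test where a call changed. Alternatives were edgeR 4.0.16 with TMM, TMM factors in DESeq2, a filter of 10 counts in 2 libraries, replicate blocks, fewer libraries and library-size scaling (CPM). Both tools were run on simulated counts with planted log2 changes of 2, up or down, in genes with a mean of at least 50 counts. Smaller changes were not simulated. One listed B-cell marker is not reported here and was left out of the summed level.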

Additional observations from a re-analysis of the deposited data

How the results depend on the processing

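Of 320 refits of the 24 member calls, 278 kept the call and direction, 42 lost the call and none reversed, and of 1625 refits of the 111 values without a call 20 gained one. In the TET comparison at 0 h the number of members called was 2, and 1 with edgeR, and it ranged from 0 to 2 over fits without a library. At 6 h it was 4, 1 with edgeR and 2 when only the libraries compared were fitted, and 0 to 4 without a library. Without a library the other counts ranged from 0 to 1 for TDG at 0 h and for the TET change of the KLA response, and from 0 to 2 for TET minus TDG at 0 h and for the added difference between the WT cohorts, each of these maxima coming without 0 h WT replicate 1 of the Tdg cohort, apart from the TET change, where it came without 6 h WT replicate 2. Th2 replicates 1 and 2 alone gave 1 member against 0.

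With the replicate block nested in genotype, 5 members were called in WT of the Tdg cohort against 2 (Dusp4 0.86, Dusp6 -0.76 and Dusp7 -0.79 in addition, adjusted p 0.0363, 0.0409 and 0.0328), Dusp6 was added in TDG iKO (-0.91, adjusted p = 0.0125), and Dusp4 was the 1 member added in the TET change of the KLA response. In the Tdg cohort no label links samples beyond the number, although deviations of same-numbered libraries correlated at 0.335 to 0.789 in the 4 pairs of groups. The plain replicate block changed 1 call, Dusp6 in TDG iKO (-0.89, adjusted p = 0.0208), and the block changed no other call than those given here and above.

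Across all genes, edgeR called 413 against 1001 for KLA in WT of the Tdg cohort, 346 against 824 in TDG iKO and 1 against 52 for the TET change of the KLA response. The replicate block called 1809 and 1375 in WT and TDG iKO of the Tdg cohort, 90 for the TET change and 15 against 0 in Th2 cells, and the nested block 1822, 1312 and 225. In Th2 cells 2 genes were called with replicates 3 and 4 separate, 87 with these and the block, and 46 in replicates 1 and 2 alone, and 4 against 0 with the block for TDG at 0 h. For TET minus TDG edgeR called 0 against 39 at 0 h and 1 against 10 at 6 h, and for the WT cohort difference 0 against 2. By normalised count and by CPM alike, 4 members had a WT Th2 mean above every BMDM group mean, and the share over all genes was not computed. With 2 libraries per BMDM group, and with 0 to 34 counts of Dusp10 and Dusp14, small differences were not detectable at this depth.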
